A study of Mus musculus with 12 samples.

Results

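The respiratory chain and ATP synthase subunits are the nuclear-encoded proteins of complexes I to V of the inner mitochondrial membrane. They were chosen by gene symbol alone, as every symbol beginning with Ndufa, Ndufb, Ndufc, Ndufs, Ndufv, Uqcr or Atp5, every Cox symbol continuing with a digit from 4 to 8, and Sdha, Sdhb, Sdhc and Sdhd, with the Ndufaf assembly factors and entries marked as pseudogenes left out. This gave 86 of the 23284 genes in the table. RNA was sequenced from ILC3s, group 3 innate lymphoid cells, sorted from the small intestine of HR-1 hairless mice at 18 weeks of age. Cells came from the intraepithelial layer (IEL) or the lamina propria (LP) of offspring nursed on milk rich in palmitic acid (PA milk) or on normal milk (ND), with 3 libraries in each of the 4 groups. The sort kept lineage-negative cells carrying Thy1.2, CD25 and Nrp1, for which the study's methods also list CD4 and a figure legend CD45 in its place, and libraries were amplified from very little RNA with the SMART-Seq v4 kit. The labels do not say whether replicates came from separate mice, so p-values measure only the spread between these samples.

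In the respiratory chain, complexes I and II pass electrons from NADH and succinate to ubiquinone, complex III passes them on to cytochrome c, and complex IV delivers them to oxygen. Complexes I, III and IV pump protons, and the ATP synthase, an F1 head turned by a ring of c subunits in the membrane (Fo), lets the protons back in to make ATP. Most subunits are encoded in the nucleus and a few in mitochondrial DNA, and complex IV has spare versions of several subunits that are known from heart, skeletal muscle, lung or testis.

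The libraries were uneven in breadth and in their cell type markers. Levels are given as FPKM, fragments per length of transcript and per amount of mapped reads. Between 4390 and 11378 genes reached an FPKM of 1, fewest in replicate 2 of PA milk IEL (4390) and replicate 2 of PA milk LP (5637), and the counts scaled by the authors summed to between 9376529 and 11710874 per library. Thy1, which encodes an antigen of the sort, was listed at 0 in 5 libraries, namely replicate 2 of ND IEL, replicate 2 of PA milk IEL, replicate 1 of ND LP and replicates 1 and 2 of PA milk LP, so the labelled cell type was not borne out by this marker there. The 5 sort genes together, Thy1, Il2ra, Nrp1, Ptprc and Cd4, were above 0 in every library. They held 0.00436%, 0.00339%, 0.0141%, 0.00374% and 0.0144% of the FPKM in those 5 libraries, in that order. Their highest share was 0.0373%, in replicate 2 of ND LP. The ILC3 markers together held 0.0319% to 0.104% of the FPKM in ND IEL, 0.0421% to 0.389% in PA milk IEL, 0.119% to 0.768% in ND LP and 0.0129% to 0.0648% in PA milk LP. Of the 20 epithelial markers, which a lineage-negative lymphoid sort should remove, all passed the filter on low values, and together they held 3.88% to 11.9% of the FPKM in ND IEL, 0.813% to 7.50% in PA milk IEL, 0.494% to 1.02% in ND LP and 0.0722% to 0.356% in PA milk LP.

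The subunits were among the most abundant mRNAs of these libraries. Ranked by mean FPKM over the 12 libraries, 72 of the 86 lay within the 1000 highest genes, with a median rank of 377.5. Cox6a1, a structural subunit of complex IV, was the highest at a mean of 1764 FPKM and was the only one within the 50 highest genes. It was followed by Atp5b, the catalytic beta subunit of F1 (1384), and by Cox4i1, the common form of a regulatory subunit of complex IV (1354). Within each complex the means spanned a wide range. The 12 common complex IV subunits had a median of 959 FPKM, the 10 Fo and stalk subunits 759, the 5 F1 subunits 624, the 8 complex III subunits 616, the 4 complex II subunits 325, the 29 supernumerary subunits of complex I 319 and its 7 core subunits 162. FPKM is a level per length of transcript. Whether it still depends on length here was not tested, so the order of the complexes only describes the listed values.

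Each complex had members at high and at low levels. In complex I core, Ndufs7, an iron-sulfur subunit, was the highest (389) and Ndufs1, the largest iron-sulfur subunit, the lowest (64.0). Among the supernumerary subunits, Ndufa3 was the highest (823) and Ndufs5 the lowest, with 0, 6.85 and 0 FPKM in ND IEL, 25.4, 0 and 32.7 in PA milk IEL, 0, 0 and 8.15 in ND LP and 27.4, 0 and 0 in PA milk LP. Complex II ran from 174 for Sdha, its flavoprotein, to 524 for Sdhb, its iron-sulfur protein. Complex III ran from 155 for Uqcrc2, core protein 2, to 1157 for Uqcr11. Common complex IV subunits ran down to 81.3 for Cox7a2l, a factor that joins complexes III and IV into supercomplexes. In F1 the lowest was Atp5c1, the gamma subunit (467), and in Fo it was Atp5g2, 1 of 3 genes for the c subunit (296), while Atp5g3 was the highest there (1268).

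Of the 86 genes, 83 reached an FPKM of 1 in at least 3 libraries and were tested. The other 3, Cox7b2, Cox8b and Cox8c, all isoforms of complex IV subunits known from other tissues, were listed at 0 in every library. Cox4i2 and Ndufa4l2 were the only tested members under an FPKM of 1 in most libraries beside Cox6b2 and Ndufs5. Among the tested symbols, Atp5s and Atp5sl (means of 13.1 and 19.9 FPKM) and Cox4nb (15.1) match the naming rule but do not encode subunits of these complexes, and they are counted among the 83. The 13 subunits encoded in mitochondrial DNA were not analysed here.

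The members' promoters were searched for shared letters. RefSeq promoters on GRCm38.p6, the assembly behind mm10, were matched for 70 of the 86 genes, 6 of them with 2 start sites, giving 76 windows of 300 bases. Searched on both strands were the letters GCGCNNGCG, the core of the NRF1 site, CCGGAAG, the core of the ETS site read by GABP, and AAGATGG, the core of the YY1 site, 3 factors known for nuclear genes of mitochondrial proteins. The last 3 letters of the ETS core are the first 3 of the YY1 core, so the matches can overlap, and in 0 of the 76 windows did an ETS and a YY1 match overlap. The NRF1 letters were in 40.8% of member promoters against 12.1% of all 32851 promoters of the same length, the ETS letters in 21.1% against 8.86%, and the YY1 letters in 17.1% against 6.34%. At least 1 of the 3 stood in 49 of the 76 windows. A match is a run of letters and not a measured site. The promoters of 4 members are shown, as the 150 bases before the start site with matched letters in capitals, for the highest member (Cox6a1), for the members with the smallest p between layers (Uqcrc1 in PA milk and Atp5g3 in ND) and for a muscle isoform that varied widely (Cox7a1).
Cox6a1, at chr5:115348959-115349108 on the minus strand:
Cox6a1: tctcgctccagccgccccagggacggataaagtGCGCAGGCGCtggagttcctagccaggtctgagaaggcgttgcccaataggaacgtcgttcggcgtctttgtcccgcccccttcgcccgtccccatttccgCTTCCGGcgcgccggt
Uqcrc1, at chr9:108936498-108936647 on the plus strand:
Uqcrc1: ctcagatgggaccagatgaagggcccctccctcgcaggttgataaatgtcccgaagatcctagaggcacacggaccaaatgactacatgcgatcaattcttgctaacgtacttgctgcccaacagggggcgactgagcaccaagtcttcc
Atp5g3, at chr2:73911327-73911476 on the minus strand:
Atp5g3: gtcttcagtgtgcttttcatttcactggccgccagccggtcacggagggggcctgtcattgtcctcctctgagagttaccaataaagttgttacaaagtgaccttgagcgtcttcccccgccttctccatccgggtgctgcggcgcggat
Cox7a1, at chr7:30184021-30184170 on the plus strand:
Cox7a1: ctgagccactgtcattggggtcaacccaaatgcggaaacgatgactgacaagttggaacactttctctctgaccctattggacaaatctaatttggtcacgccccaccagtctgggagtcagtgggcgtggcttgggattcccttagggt
Cox6a1 held NRF1 letters and, close to the start, ETS letters on the other strand. Uqcrc1 and Atp5g3 had NRF1 letters only past the start site, outside the printed stretch, and Cox7a1 had none of the 3 motifs in its window.

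The share of each library taken by the members was highest in ND IEL and lower in LP. The 86 genes held 7.58%, 6.05% and 6.70% of the FPKM in ND IEL (6.78% ± 0.77, SD, n = 3) and 3.19%, 4.61% and 5.57% in ND LP (4.46% ± 1.20). Every ND IEL library lay above every ND LP library. In PA milk the shares were 5.54%, 4.33% and 8.21% in IEL (6.03% ± 1.98) and 4.45%, 4.97% and 2.89% in LP (4.10% ± 1.08), and the layers overlapped, replicate 2 of PA milk IEL being lower than replicates 1 and 2 of PA milk LP. Neither layer separated the diets. Shares of the scaled counts, which do not divide by length, were lower, at means of 2.95% in ND IEL, 2.51% in PA milk IEL, 1.84% in ND LP and 1.56% in PA milk LP. By group mean, complex IV (2.03% ± 0.12) and the ATP synthase (1.95% ± 0.26) held the largest parts of the total in ND IEL. Complex IV was counted here with its isoforms known from other tissues. The ATP synthase lay above complex IV in replicates 1 and 3 and below it in replicate 2, so their order is not settled. Complex I (1.62% ± 0.29), complex III (0.926% ± 0.107) and complex II (0.237% ± 0.031) followed.

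**Figure D1:**
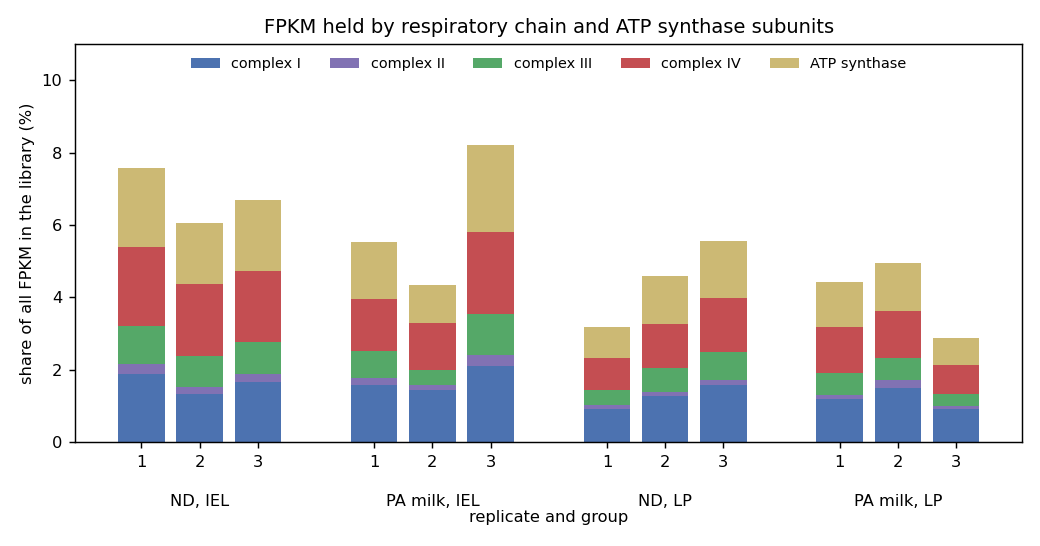
Share of all FPKM in each library held by the subunits, in percent, stacked by complex, for replicates 1 to 3 of each group. The ND IEL bars reach 6.05% to 7.58% and the ND LP bars 3.19% to 5.57%, while the PA milk IEL bars range from 4.33% to 8.21%.

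The levels of most members were correlated across libraries. The median Spearman correlation between pairs of the 83 tested members over the 12 libraries was 0.50, a description of points that share their library, depth and sort. The same value was not computed for other genes, so it cannot be called particular to the members. The members most like the rest were Uqcr11 (median correlation 0.73), Cox7c (0.72) and Atp5j2 (0.72), small subunits of complexes III, IV and the ATP synthase. The least like were Ndufa4l2 (-0.29), a paralog of Ndufa4 known from hypoxia, Cox4nb (-0.14) and Cox4i2 (-0.13), the lung form of Cox4. Uqcrc1, core protein 1 of complex III, stood in between at 0.46.

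**Figure D2:**
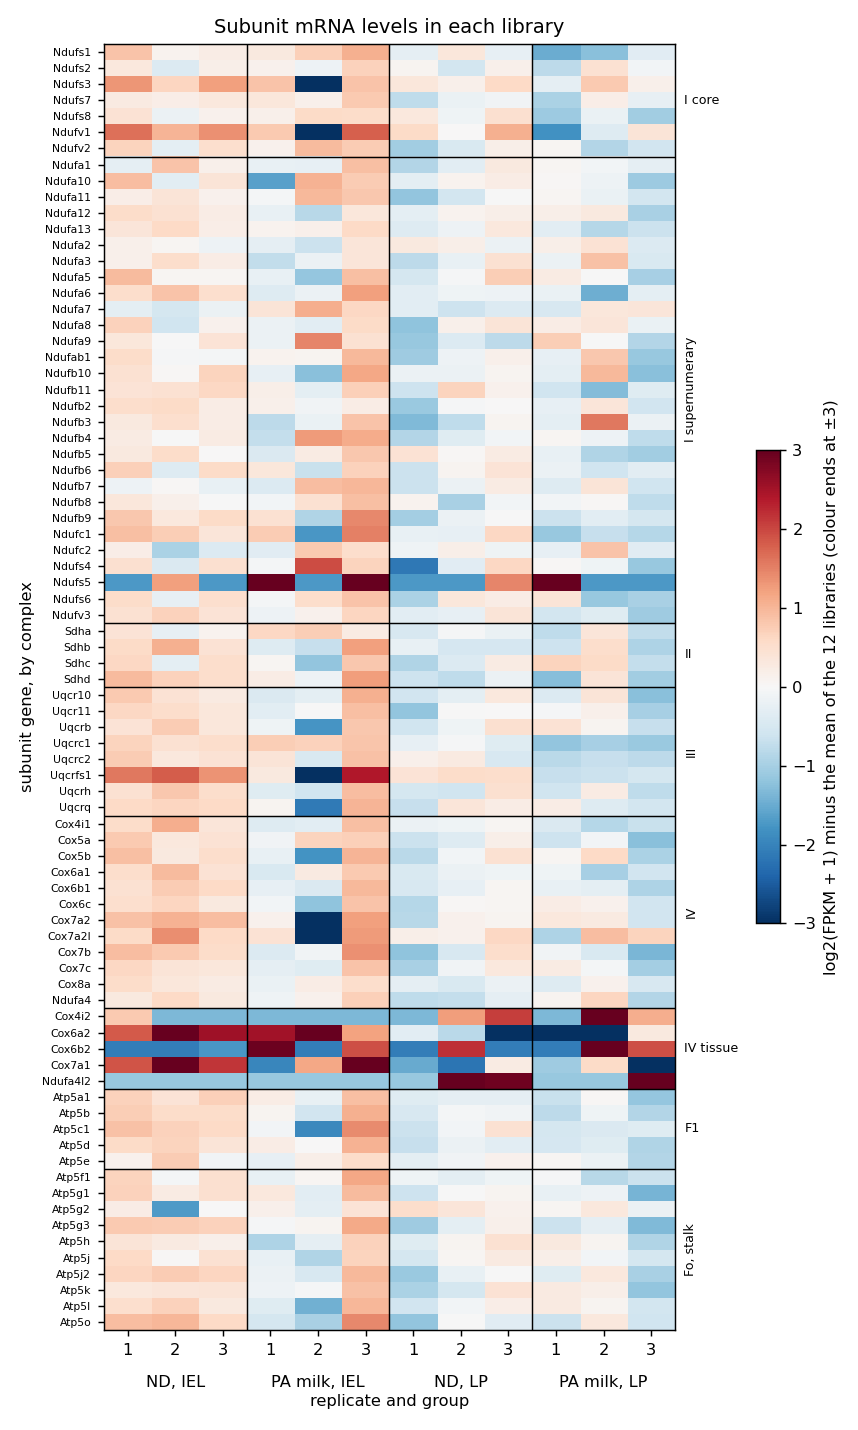
Level of each tested subunit in each library as log2(FPKM + 1) minus its mean over the 12 libraries, with genes grouped by complex and columns by group and replicate. Replicate 3 of PA milk IEL is high in most rows, and replicate 2 of PA milk IEL is far below the mean for Ndufs3, Ndufv1, Uqcrfs1 and Cox7a2l.

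Replicate 2 of PA milk IEL stood apart at the level of single subunits. It had 11 of the 83 tested members under an FPKM of 1, against 1 to 4 in the other libraries. Only 4390 of the 23284 genes reached an FPKM of 1 there, the fewest of any library. Low values there were thus not particular to the members, and the share of all tested genes under 1 was not counted. Ndufs3 and Ndufv1, core subunits of complex I, were at 0.0994 and 0.107 FPKM there, and Uqcrfs1, the Rieske iron-sulfur protein of complex III, at 0.198, although these genes reached 201, 328 and 820 FPKM in replicate 3 of the same group. Cox7a2l was listed at 0. A listed 0 can be a failed estimate, and these values are given only as listed.

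Between layers in ND mice, subunit mRNAs were lower in LP than in IEL across all 5 complexes, but no member passed the test. In limma on log2(FPKM + 1), with adjustment over all 12502 genes tested, 0 of the 83 members had a Benjamini-Hochberg adjusted p under 0.05, as did 0.032% of all genes. At an unadjusted p under 0.05 there were 17 members, all lower in LP, against a background of 6.63% of all genes in either direction. In 40 of the 83 every LP library lay below every IEL library, against 9.95% of all genes, and 0 members lay wholly above, against 9.34%. The fitted difference was negative for 73 of the 83 members, with a median of -0.65 on the log2 scale, where all genes had a median of 0.09. Epithelial markers moved the same way, 18 of 20 being lower in LP with a median of -2.34, 17 of them without overlap. Higher in LP were 11 of 14 ILC3 markers (median 1.75), 5 of 6 B and plasma cell markers (median 3.08) and 6 of 7 myeloid markers (median 0.78). T cell markers were split, 3 lower and 4 higher (median 0.21). The part of these markers in the difference was not tested. In bulk RNA, fewer cells of a type and less RNA per cell cannot be told apart. When each library was scaled to the median of leukocyte genes, the median of the members was still -0.65 and 73 were still lower, but only 2 of the 83 lay wholly lower in LP, against 5.23% of all genes, and 3 had an unadjusted p under 0.05.

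The ATP synthase and complex IV held the largest fractions of separated members. In complex IV all 12 common subunits had a negative difference, also under both other scalings, and 10 did not overlap. In the ATP synthase these numbers were 14 and 10 of 15, in complex III 8 and 5 of 8, in complex II 4 and 2 of 4, and in complex I 32 and 11 of 36. The members without overlap are those drawn as filled points for ND in the plot of layer differences.

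Atp5g3, which encodes the c subunit of the Fo ring, had the smallest p. Its FPKM was 1942, 1904 and 1826 in ND IEL and 539, 911 and 1240 in ND LP. The 3 IEL libraries were nearly level and all lay above the widely spread LP libraries. The log2 difference was -1.16 with a standard error of 0.37 and a limma Benjamini-Hochberg adjusted p of 0.4. The gene lies at chr2:73908447-73911326 on the minus strand. Cox6a1 was at 2347, 3132 and 2190 in ND IEL and 1182, 1452 and 1494 in ND LP, again without overlap (-0.88, standard error 0.30, limma adjusted p = 0.449). Ndufa4, long assigned to complex I and now placed in complex IV, was at 1279, 1570 and 1275 in IEL against 615, 639 and 859 in LP. Its difference was -0.97 with a standard error of 0.35 (limma adjusted p = 0.508). Atp5j2, the f subunit of Fo, was at 1305, 1409 and 1296 against 382, 711 and 827 (-1.13, standard error 0.42, limma adjusted p = 0.538). In each of these genes the lowest IEL library exceeded the highest LP library.

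Among the common subunits, Atp5o and Sdhd differed most in ND. Atp5o encodes the stalk protein that confers sensitivity to oligomycin, and it was at 980, 1037 and 776 FPKM in IEL and 226, 514 and 407 in LP. Its log2 difference was -1.35 with a standard error of 0.54. Sdhd, a membrane anchor of complex II, was at 758, 627 and 558 against 255, 230 and 347 (-1.23, standard error 0.49), and Cox7a2 at 613, 690 and 636 against 187, 367 and 352 (-1.16, standard error 0.86). None of the 3 overlapped between layers. With sample quality weights, 11 members had an adjusted p under 0.05 in this comparison, Atp5g3, Cox6a2, Ndufa4, Atp5j2 and Sdhd among them, as did 6.34% of all genes. With voom on the scaled counts there were 6, as there were 2.97% of all genes.

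In PA milk mice the difference between layers had the same direction and was more scattered. Of the 83 members, 0 had an adjusted p under 0.05, as did 0.144% of all genes, and 13 had an unadjusted p under 0.05, all lower in LP, against 10.6% of all genes. Every LP library lay below every IEL library in 13 members, against 4.06% of all genes, and 0 members lay wholly above, against 4.51%. The fitted difference was negative for 60 of 83 with a median of -0.48, where all genes had a median of 0.03. Scaled to leukocyte genes the median was -0.19, 52 members were lower and 3 did not overlap, against 2.4% of all genes. Leaving out replicate 1 or 2 of PA milk IEL or of PA milk LP gave 28, 24, 20 and 23 members lower without overlap, against 7.08%, 14.1%, 6.08% and 6.57% of all genes, in that order. Leaving out replicate 3 of PA milk IEL or of PA milk LP gave 14 and 13, against 7.17% and 8.34% of all genes. Without the 2 libraries that had the fewest genes, replicate 2 of both PA milk groups, 81 of 83 members were lower with a median of -0.82. In that setting 38 did not overlap, against 19.6% of all genes, and 4 had a limma adjusted p under 0.05, against 2.51% of all genes. Epithelial markers were lower in LP for 16 of 20 (median -2.72) and ILC3 markers for 10 of 14 (median -2.02). B and plasma cell markers were lower for 4 of 6 (median -0.16) and myeloid markers for 3 of 7 (median 0.02), while 5 of 7 T cell markers were higher (median 1.59). The part of these markers in this difference was not tested either.

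**Figure D3:**
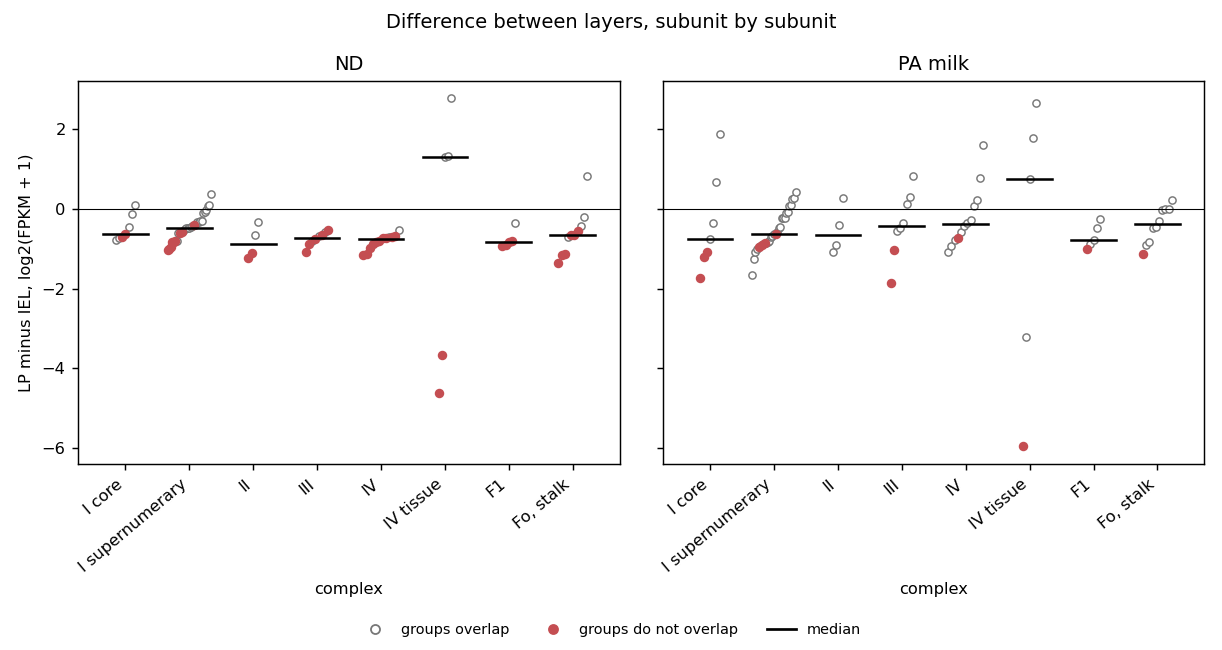
LP minus IEL difference of each tested subunit on the log2(FPKM + 1) scale, by complex, in ND (left) and PA milk (right). Filled points are members whose 3 LP libraries all lie below the 3 IEL libraries, 40 in ND and 13 in PA milk, and the black line is the median of each list.

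Uqcrc1 separated the layers most clearly in PA milk. It encodes core protein 1 of complex III, in a gene at chr9:108936633-108949623 on the plus strand. Its FPKM was 593, 579 and 631 in PA milk IEL and 156, 177 and 164 in PA milk LP. Both groups were tight, and the lowest IEL library was over 3 times the highest LP library. The log2 difference was -1.86 with a standard error of 0.36, an unadjusted limma p of 0.000103 and a Benjamini-Hochberg adjusted p of 0.0614. This adjusted p fell to 0.0229 when only genes at an FPKM of 1 or more in all libraries were tested, to 0.039 with a pseudocount of 0.1, to 0.0192 with sample quality weights and to 0.0122 without replicate 2 of PA milk LP. It was 0.528 after scaling to leukocyte genes. Of 23 alternatives, 5 gave a limma adjusted p under 0.05, and the largest value was 0.844. In ND the same gene was at 563, 492 and 517 in IEL and 299, 349 and 278 in LP, also without overlap (-0.77, standard error 0.36, limma adjusted p = 0.753).

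In 7 members the layers did not overlap in either diet, which is 17.5% of the 40 in ND and 53.8% of the 13 in PA milk. These fractions were close to the rates among all 83 members, which were 15.7% in PA milk and 48.2% in ND. Among all genes tested, 1.25% lay lower in LP without overlap in both diets, against 8.43% of the members. The comparisons within ND and within PA milk share no library. These 7 were Atp5d and Atp5g3 of the ATP synthase, Cox4i1 and Cox6a2 of complex IV, Uqcrc1 and Uqcrc2, the core proteins of complex III, and Ndufv3 of complex I. Atp5d, the delta subunit of F1, was at 675, 577 and 1194 FPKM in PA milk IEL and 406, 447 and 310 in PA milk LP (-1.01, standard error 0.35, limma adjusted p = 0.4). Cox5a was at 776, 1337 and 1363 against 542, 790 and 348, where replicate 1 of IEL fell within the LP range (-1.08, standard error 0.36, limma adjusted p = 0.372). Ndufs1 was at 70.1, 93.9 and 119 against 19.6, 23.1 and 44.3 (-1.73, standard error 0.72), and Ndufs8, another iron-sulfur subunit of complex I, at 286, 383 and 373 against 121, 223 and 123 (-1.20, standard error 0.45). In Atp5d, Ndufs1 and Ndufs8 no LP library reached the lowest IEL library.

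The muscle isoforms of complex IV showed the widest differences between layers. Cox6a2, the heart and skeletal muscle form of Cox6a at chr7:128205435-128206387 on the minus strand, was at 114, 314 and 186 FPKM in ND IEL, 182, 687 and 73.0 in PA milk IEL, 24.6, 17.3 and 0 in ND LP and 0, 0 and 38.3 in PA milk LP. All 6 IEL libraries lay above all 6 LP libraries, 3 of which were listed at 0. The fitted log2 difference was -4.61 with a standard error of 1.49 in ND (limma adjusted p = 0.4) and -5.95 in PA milk (limma adjusted p = 0.189), and these sizes depend on the pseudocount of 1 because of the listed zeros. Without replicate 3 of PA milk LP the latter became -7.72 with a limma adjusted p of 0.0376. Cox7a1, known from heart, muscle and brown fat and located at chr7:30184144-30186078 on the plus strand, was at 304, 907 and 362 in ND IEL and 27.8, 16.9 and 96.7 in ND LP (-3.65, standard error 1.52, limma adjusted p = 0.631). These groups did not overlap. In PA milk it was at 20.02, 182 and 987 in IEL and 37.9, 121 and 0 in LP, and the groups overlapped.

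The makeup of some subunit sets also differed between layers. Cox6a2 made up 4.64% to 9.11% of the Cox6a1 and Cox6a2 total in ND IEL, 2.52% to 26.0% in PA milk IEL, 0% to 2.04% in ND LP and 0% to 3.39% in PA milk LP. Cox7a1 made up 30.4% to 51.9% of the Cox7a1, Cox7a2 and Cox7a2l total in ND IEL and 3.79% to 18.0% in ND LP, but 4.34% to 87.5% in PA milk IEL and 0% to 19.1% in PA milk LP. Among the 3 genes that encode the same mature c subunit, Atp5g3 held 63.4% ± 5.4 (SD, n = 3) in ND IEL, 57.7% ± 6.5 in PA milk IEL, 48.1% ± 8.2 in ND LP and 48.3% ± 1.9 in PA milk LP. Atp5g2 held 7.51% ± 3.79, 11.7% ± 2.5, 20.9% ± 8.2 and 21.4% ± 4.4 in the same order, and Atp5g1 stayed between group means of 29.1% and 31.0%. Reads of these near copies could have been divided between them during quantification, so the split is uncertain.

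The remaining isoform sets were dominated by the common form. Cox4i1 held at least 94.0% of its set with Cox4i2 in every library, and Ndufa4 at least 93.6% of its set with Ndufa4l2. Ndufa4l2 was listed at 0 in all 6 IEL libraries and reached 17.8 and 15.7 FPKM in replicates 2 and 3 of ND LP and 38.7 in replicate 3 of PA milk LP. Cox4i2 had its highest level, 44.1 FPKM, in replicate 2 of PA milk LP, where Cox6b2, the testis form of Cox6b, also peaked at 156 FPKM. None of these rare forms was present in all 3 libraries of a group.

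**Figure D4:**
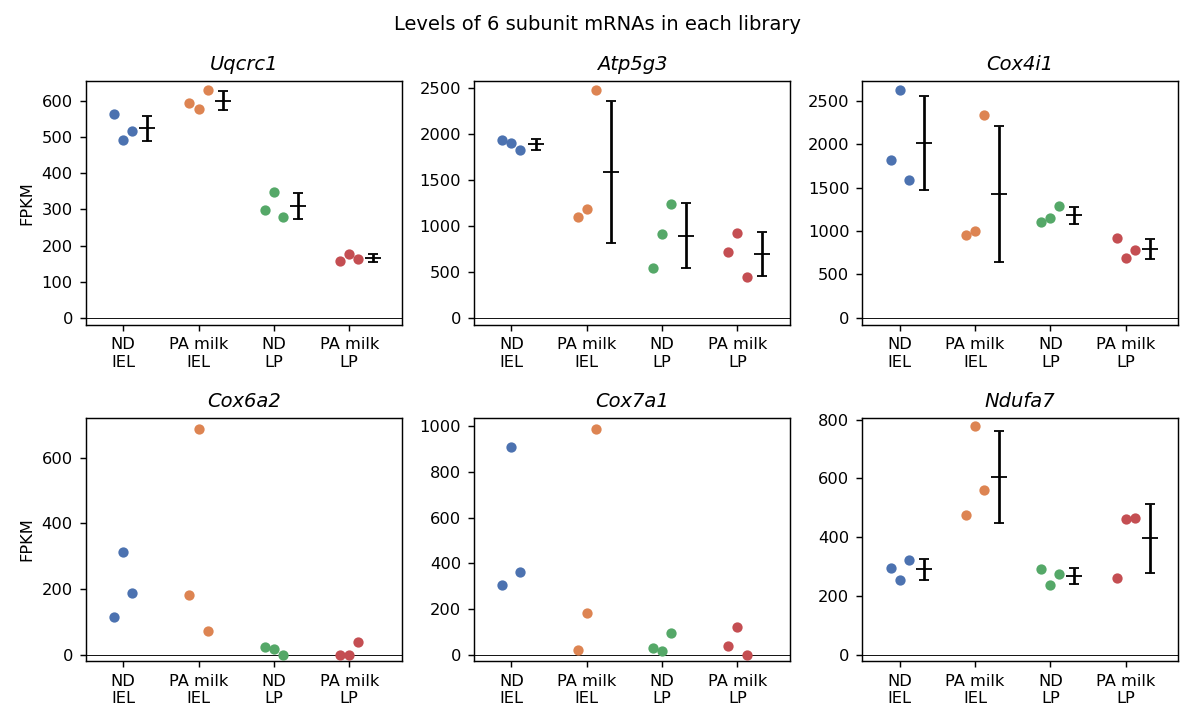
FPKM of 6 subunit genes in each library, by group, with the group mean and SD (bars, n = 3) for the 4 genes that no library lists at 0. Uqcrc1 is tight within groups and lowest in PA milk LP (156 to 177), Cox6a2 is higher in all IEL libraries than in any LP library, and Ndufa7 is highest in PA milk IEL (476 to 780).

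The first milk comparison asked whether nursing on PA milk changed the subunits in IEL cells at 18 weeks, and no member passed the test. Of the 83 members, 0 had an adjusted p under 0.05, as did 0% of all genes, and 1 had an unadjusted p under 0.05, against 3.58% of all genes. In 0 members was every PA milk library below every ND library, against 5.22% of all genes, and in 2 was every PA milk library above, against 2.97%. The median log2 difference was -0.30, as was that of all genes, with 61 members lower and 22 higher. Without the 2 libraries with the fewest genes the median was -0.04, with 45 members lower. Without replicate 3 of PA milk IEL, 44 members lay wholly below ND, against 16.4% of all genes. Without replicate 1 or 2 of that group or replicate 1 of ND IEL, 11, 5 and 7 lay wholly above, against 6.57%, 9.92% and 4.79% of all genes. Epithelial markers were lower in PA milk IEL for 19 of 20 (median -1.68) and T cell markers for 6 of 7 (median -1.93). In contrast 10 of 14 ILC3 markers (median 1.13) and 5 of 7 myeloid markers (median 0.64) were higher. B and plasma cell markers were split, 3 lower and 3 higher (median -0.17). The part of these markers in the result was not tested.

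Ndufa7 and Uqcrc1 were the 2 members higher without overlap. Ndufa7, a supernumerary subunit of complex I at chr17:33824572-33838317, was at 476, 780 and 560 FPKM in PA milk IEL and 295, 253 and 322 in ND IEL. The lowest PA milk library lay well above the highest ND library. Its log2 difference was 1.03 with a standard error of 0.40 and a limma adjusted p of 0.947. For Uqcrc1, at 593, 579 and 631 against 563, 492 and 517, it was 0.20 with a standard error of 0.36, and after scaling to the upper quartile or to leukocyte genes 1 and 0 members respectively stood wholly above. Cox7a2 (365, 25.9 and 790 FPKM against 613, 690 and 636), Uqcrfs1 (189, 0.198 and 820 against 463, 547 and 394) and Ndufs3 (201, 0.0994 and 201 against 278, 172 and 260) had the next smallest p, with log2 differences of -1.71, -3.02 and -2.71. Each of these 3 rested on replicate 2 of PA milk IEL, and without it the differences were -0.27, -0.24 and -0.20.

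In LP as well, no member passed the test between PA milk and ND. Of the 83 members, 0 had an adjusted p under 0.05, as did 0% of all genes, and 2 had an unadjusted p under 0.05, both lower, against 4.7% of all genes. In 9 members every PA milk library lay below every ND library, against 6.6% of all genes, and in 0 members above, against 2.97%. The median log2 difference of the members was -0.13, where all genes had -0.36, and it was 0.04 after scaling to leukocyte genes, which also left 0 members without overlap. Without the 2 libraries with the fewest genes, 18 members lay wholly below, against 10.3% of all genes. This count was 14, 18 and 19 without replicate 1 or 2 of PA milk LP or replicate 1 of ND LP, against 10.5%, 10.3% and 13.1% of all genes. It was 10 without replicate 3 of PA milk LP, against 19% of all genes, and 6 members then lay wholly above, against 8.58%. Without replicate 2 or 3 of ND LP it was 10 each time, against 10.4% of all genes in both settings. Most cell type lists were lower in PA milk LP as well, with 12 of 14 ILC3 markers (median -2.86) and 19 of 20 epithelial markers (median -1.99, 6 without overlap). So were 6 of 6 B and plasma cell markers (median -4.08) and 6 of 7 T cell markers (median -1.78). Myeloid markers did not follow, with 3 lower and 4 higher (median 0.28). The part of these markers in the result was not tested.

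The 9 members comprised 3 of the 8 complex III subunits, 5 of the 36 complex I subunits and Cox4i1. Uqcrc1 was at 156, 177 and 164 FPKM in PA milk LP and 299, 349 and 278 in ND LP, a log2 difference of -0.89 with a standard error of 0.36 (unadjusted p = 0.0254 and adjusted p = 0.979 in limma). Uqcrc2 was at 80.9, 88.2 and 83.0 against 158, 174 and 103 (-0.74, standard error 0.55), and Uqcrfs1 at 95.6, 98.6 and 108 against 205, 227 and 225 (-1.12, standard error 1.52). All 3 were tight in PA milk LP. Their partners in complex III, Uqcrb, Uqcrq, Uqcrh, Uqcr10 and Uqcr11, overlapped between the diets.

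The complex I subunits were Ndufs1, Ndufs8, Ndufv3, Ndufb5 and Ndufc1. Ndufs8 was at 121, 223 and 123 FPKM in PA milk LP and 318, 236 and 358 in ND LP (-1.001, standard error 0.45, limma adjusted p = 0.979). Replicate 2 of PA milk LP came close to the lowest ND library. Ndufs1 was at 19.6, 23.1 and 44.3 against 47.0, 72.5 and 47.5, Ndufb5 at 119, 74.1 and 66.7 against 190, 144 and 167 and Ndufc1 at 174, 236 and 212 against 329, 321 and 594, with log2 differences of -0.98, -0.98 and -0.95. Cox4i1 was at 917, 689 and 776 against 1106, 1145 and 1291 (-0.58, standard error 0.33, limma adjusted p = 0.979). Ndufb3 went the other way, at 193, 712 and 210 against 93.7, 139 and 252 (1.04, standard error 0.61), with overlap. None of the 15 ATP synthase subunits was without overlap in either layer.

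**Figure D5:**
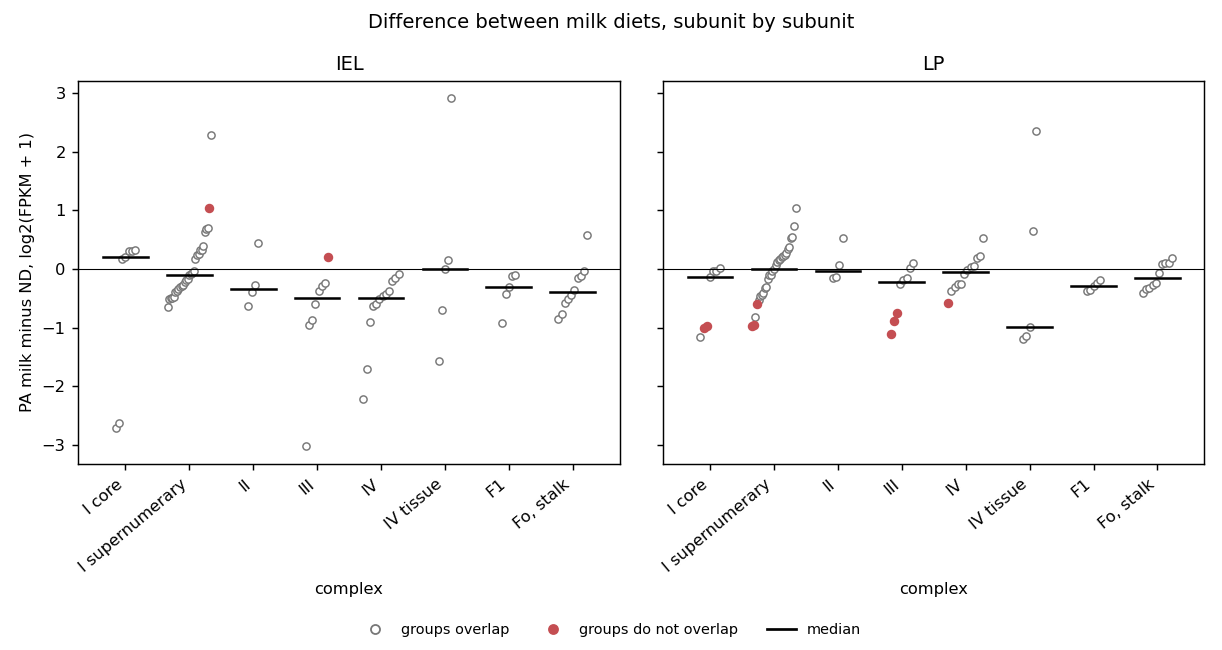
PA milk minus ND difference of each tested subunit on the log2(FPKM + 1) scale, by complex, in IEL (left) and LP (right). Filled points are members whose groups do not overlap, 2 in IEL and 9 in LP, and the black line is the median of each list.

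The difference of the milk effect between layers was tested directly. Of the 83 members, 0 had an adjusted p under 0.05, as did 0% of all genes, and 1, Uqcrc1, had an unadjusted p under 0.05, against 2.34% of all genes. In the FPKM as deposited, but not after scaling to leukocyte genes, Uqcrc1 was without overlap higher in PA milk IEL and lower in PA milk LP. The difference of its milk effects, LP minus IEL, was -1.09 with a standard error of 0.51 (unadjusted p = 0.0488 and adjusted p = 1 in limma). For Ndufs8 it was -1.30 with a standard error of 0.64, and for Ndufb3, Cox7a2 and Ndufa4 it was 1.42, 1.92 and 0.69, with unadjusted p of 0.117, 0.132 and 0.188 in limma. The median over the members was 0.13, where all genes had -0.03. It was -0.25 with 57 of 83 negative without the 2 libraries with the fewest genes, -0.30 with voom, and between -0.14 and 0.44 with 1 library left out.

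Genes of related steps were read from the same fits. Of 10 electron carriers and subunits with other symbols, 10 were lower in LP in ND, 7 without overlap (median -0.85), and 10 in PA milk, 2 without overlap (median -0.49). Among them Cyc1, cytochrome c1 of complex III, was at 942, 466 and 676 FPKM in ND IEL, 642, 667 and 1109 in PA milk IEL, 315, 416 and 433 in ND LP and 187, 385 and 161 in PA milk LP. Like Uqcrc1, it was without overlap between layers in both diets. Of 18 genes of the tricarboxylic acid cycle, 15 were lower in LP in ND and 10 in PA milk, with medians of -0.50 and -0.05. Of 18 glycolytic genes, 13 and 11 were lower (medians -0.42 and -0.34), of 24 assembly factors 18 and 15 (-0.34 and -0.34), and of 16 genes for transcription and maintenance of mitochondrial DNA 9 and 9 (-0.45 and -0.23). None of the genes in these 5 lists had an adjusted p under 0.05 in any comparison.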

How the data were processed

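RNA-seq of 12 ILC3 libraries (4 groups of 3) was analysed. The authors mapped reads to mm10 and quantified genes, and the submitters' processing notes name TopHat2 2.1.1, Bowtie2 2.2.8.0, SAMtools 0.1.18, Cufflinks 2.2.1 and Cuffdiff 2.2.1. The deposited FPKM values were used as they stand. The deposited table of counts has the unit of a scaled signal and not of raw counts: over 791 genes with at least 2000 scaled counts, its ratio to FPKM varied between libraries by a median of 0.027%, so the depth in raw reads is unknown.

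The 12502 genes that reached 1 FPKM in 3 or more libraries were tested on log2(FPKM + 1) in limma 3.58.1 (R 4.3.3) with a mean-variance trend, 4 group means and 5 comparisons, with Benjamini-Hochberg adjustment over all of them and a threshold of 0.05. Fold changes on this scale understate changes of low genes. The methods state no test for these data. An exact permutation test of 3 against 3 libraries cannot go below p = 0.1, so single genes were not tested that way. Groups do not overlap where every library of 1 group lies beyond every library of the other. The fit was checked on simulated data, but how well it performs at the spread of these libraries was not tested.

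Named genes were the highest and lowest member of each complex, core subunits, isoform sets, the 5 members with the smallest p and up to 5 with the largest difference without overlap in each comparison, and members under an FPKM of 1 in at least 9 libraries. Other genes were named after their values were seen, among them Cyc1, Ndufv3 and the other members without overlap in both diets. The members and gene lists were chosen with earlier results of these data known. Promoters came from RefSeq (GRCm38.p6) and gene positions from GENCODE on GRCm38. Alternatives were 2 other scalings, other filters and pseudocount, fits of 6 libraries, replicate blocks, voom, sample quality weights and leaving out libraries. Tables were made with Python 3.11.15, numpy 2.4.6 and pandas 2.3.3, and plots with matplotlib 3.10.9.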

Additional observations from a re-analysis of the deposited data

Results flagged for a closer look

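Uqcrc1 was singled out because its milk effect had opposite directions in the layers: all 3 PA milk libraries lay above all 3 ND libraries in IEL (593, 579 and 631 FPKM against 563, 492 and 517) and below them in LP (156, 177 and 164 against 299, 349 and 278). The difference of the effects, LP minus IEL, was -1.09 on the log2 scale with a standard error of 0.51. Its limma p was 0.0488 before and 1 after Benjamini-Hochberg adjustment over all genes, and the adjusted p ranged from 0.711 to 1 over 21 alternatives, with the sign kept in each. The gene was picked for this pattern in the same libraries, so the kept sign is no separate support. Its milk difference in IEL alone was 0.20, and 0.07 to 0.25 over the alternatives. Scaling to leukocyte genes left 0 members wholly higher in IEL and 0 wholly lower in LP. Neither separation of Uqcrc1 was kept there. Upper quartile scaling left 1 member wholly higher in IEL. How many of all genes had opposite directions without overlap was not counted.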

How the results depend on the processing

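No member was called in the main fit of any comparison, so no called value could change sign. The median of the members did change sign in the LP milk comparison and for the difference of the milk effects. The latter ran from -0.30 to 0.44 over the alternatives. The median of the members in the LP milk comparison, -0.13, reached 0.04 after scaling to leukocyte genes and up to 0.07 with 1 library left out. The median of the members kept its direction in both layer comparisons under every alternative run, from -0.81 to -0.43 in ND and from -0.88 to -0.15 in PA milk. Scaling to leukocyte genes left 2 and 3 members lower without overlap in the ND and PA milk layer comparisons and 0 in the LP milk comparison, with 0 higher in the IEL milk comparison, and upper quartile scaling gave 2 lower and 1 higher there. The leukocyte medians were uneven within groups, from 37.8 to 118 FPKM in ND LP and from 53.8 to 109 in PA milk IEL. Such unevenness can itself make groups overlap. Sample quality weights gave 11 called members between layers in ND and 1 in PA milk, against 6.34% and 1.07% of all genes. Voom on the scaled counts gave 6 in ND, against 2.97%. A pseudocount of 0.1 or a filter of FPKM 1 in all libraries gave 1 in PA milk, against 0.104% and 0.177%. Voom moved the median to -0.53 in the LP milk comparison, to -0.30 for the difference of the milk effects and to -0.88 between layers in PA milk. An alternative chosen after seeing the data left out the 2 libraries with the fewest genes. Between layers in PA milk, 4 members were then called and 38 were lower without overlap, against 2.51% and 19.6% of all genes. In the LP milk comparison 18 were lower without overlap, against 10.3%, and in the IEL one 5 were higher, against 9.92%.

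Leaving out each library in turn, members without overlap ranged from 0 to 44 (lower) and 2 to 11 (higher) for milk in IEL, 9 to 19 and 0 to 6 for milk in LP, 40 to 57 and 0 to 3 between layers in ND and 13 to 28 and 0 to 1 in PA milk, where called members ranged from 0 to 1. Over the same settings, shares of all genes for milk in IEL ran from 5.22% to 16.4% (lower) and 2.97% to 9.92% (higher). For milk in LP they were 6.6% to 19% and 2.97% to 11.7%. Between layers they were 9.95% to 16.9% and 9.34% to 17.1% in ND. In PA milk they were 4.06% to 14.1% and 4.51% to 15.7%, with 0.008% to 2.31% called. Fewer libraries leave fewer chances to overlap, so these counts rise by construction. Shares were 2.51%, 2.95%, 1.56% and 1.84% on scaled counts for PA milk IEL, ND IEL, PA milk LP and ND LP, and 8.23% in ND IEL without the 50 most abundant genes.

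Replicate numbers are shared between groups, but same-numbered libraries did not deviate together (correlations from -0.123 to 0.0679). With a replicate block on the number, 0 members were called in each of the 5 comparisons, and members at an unadjusted p under 0.05 were 16 between layers in ND and 11 in PA milk. With diet and number together as the block these were 8 and 7.

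A count model was not run, since whole reads could not be recovered from most libraries. Low input, uneven breadth and 3 libraries a group limit what is detectable here. Many of these genes have processed pseudogenes, and reads shared with them were not separable in the values used here.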
